A study of Mus musculus with 6 samples.

Results

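Dendritic cells are a minor class of cells in marrow, and 9 of the 17382 genes in the deposited table were followed as their markers in marrow cultures labelled myeloid cells. The genes were chosen by name: Siglech and Tcf4 for plasmacytoid dendritic cells, and Cd209a, Clec9a, Xcr1, Zbtb46, Batf3, Ccl17 and Fscn1 for conventional dendritic cells. All 9 were in the table. The 6 RNA libraries came from marrow of C57BL/6 mice aged 2 months, cultured in M-CSF, a macrophage growth factor, at 40 ng/mL for 3 days. Labels name 3 libraries as knockout, with floxed PD-L1 alleles (PD-L1 flox/flox) and lysozyme-Cre, a recombinase expressed in macrophages, monocytes and granulocytes. They name the other 3 as wild type, from littermates that carry PD-L1 flox/flox without Cre, so that the PD-L1 gene is floxed in both groups. The design text calls the libraries biological triplicates. The labels do not say whether marrow was pooled.

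Plasmacytoid dendritic cells release type I interferon when they sense nucleic acids, and the E protein Tcf4 sets and keeps their identity. Conventional dendritic cells take up antigen and present it to T cells; type 1 cells depend on Batf3 and carry Clec9a and Xcr1, and Zbtb46 marks the conventional lineage as a whole. Dendritic cells arise under FLT3 ligand, and GM-CSF, often with interleukin 4, is added to marrow to obtain cells with dendritic features, while M-CSF favours macrophages.

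For 4 members that stand for the surface and lineage genes of each class, the 250 bases before the RefSeq start (GRCm38.p6, the assembly of mm10) are shown 5′ to 3′ on the gene's strand. Capitals mark E-boxes (CANNTG, the kind of site bound by Tcf4-class factors) and AP-1 sites (TGANTCA, the kind bound by Batf3-class factors with their partners), searched on both strands. Siglech is shown as the plasmacytoid surface gene, Clec9a and Xcr1 as the surface genes of type 1 cells, and Zbtb46 as the lineage gene of conventional cells.
Siglech, chr7:55767934-55768183, plus strand: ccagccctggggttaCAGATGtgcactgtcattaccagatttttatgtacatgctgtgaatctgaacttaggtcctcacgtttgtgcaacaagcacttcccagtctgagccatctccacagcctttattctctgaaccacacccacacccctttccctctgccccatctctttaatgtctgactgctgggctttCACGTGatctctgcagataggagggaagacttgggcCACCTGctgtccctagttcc
Clec9a, chr6:129408612-129408861, plus strand: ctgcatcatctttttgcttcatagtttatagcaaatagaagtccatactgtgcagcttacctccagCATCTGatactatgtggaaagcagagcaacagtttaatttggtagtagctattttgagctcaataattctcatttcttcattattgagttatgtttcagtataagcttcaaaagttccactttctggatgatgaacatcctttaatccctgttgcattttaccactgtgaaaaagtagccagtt
Xcr1, chr9:123862030-123862279, minus strand: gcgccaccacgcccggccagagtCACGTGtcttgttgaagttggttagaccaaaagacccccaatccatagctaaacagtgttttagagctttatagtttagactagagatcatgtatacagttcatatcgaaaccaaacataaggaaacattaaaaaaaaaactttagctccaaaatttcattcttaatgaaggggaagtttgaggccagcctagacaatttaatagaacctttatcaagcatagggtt
Zbtb46, chr2:181424389-181424638, minus strand: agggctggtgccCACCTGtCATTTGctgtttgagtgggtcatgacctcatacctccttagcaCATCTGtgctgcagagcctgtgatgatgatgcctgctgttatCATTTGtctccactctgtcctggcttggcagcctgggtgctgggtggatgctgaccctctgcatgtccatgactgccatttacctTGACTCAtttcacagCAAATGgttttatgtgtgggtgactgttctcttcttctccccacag
Siglech held 3 E-boxes, of which the nearest to the start, CACCTG, spans bases 20 to 15 upstream. Clec9a and Xcr1 held 1 E-box each and 0 AP-1 sites, and Zbtb46 held 5 E-boxes and 1 AP-1 site, TGACTCA. Of 27025 promoters of the same length 66.0% held an E-box and 6.87% an AP-1 site. RefSeq gave a promoter for 8 of the 9 members; 6 of the 8 held an E-box, 1 an AP-1 site and 0 an interferon response element (GAAA repeated after any 2 bases), which 3.04% of promoters hold. Such matches describe letters and do not show binding. The RefSeq start of Zbtb46 used here lies inside the span that the deposited table gives the gene, away from its end at 181459426, where the minus strand begins. The bases shown for Zbtb46 may therefore not be a promoter. Its matches, which include the only AP-1 site of the members and enter both counts, should not be set beside the shares of promoters.

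The libraries were checked before the members. Cd274, the PD-L1 gene, had 22.6 ± 5.7 TPM under the knockout label against 19.0 ± 4.2 TPM (SD, n = 3 each). The groups overlapped, and the log2 difference of 0.24 ± 0.22 (SE) did not pass. This level did not show the loss that the label names, so every direction is given by label. Lyz2, the lysozyme gene to which the Cre label refers, had 17229 ± 3464 against 31519 ± 7665 TPM, lower in each library labelled knockout, with a log2 difference of -0.87 ± 0.27 (SE) that did not pass. Which exons are floxed is not stated in the labels, and reads of exons outside the deleted part would count toward the level of Cd274. TPM is a level corrected for depth and gene length, so genes can be compared within a library. Whole reads were recovered from the TPM values, at 52355659 to 77318131 reads per library. Markers of the labelled cell type were abundant: the M-CSF receptor gene Csf1r had 815 to 1525 TPM in the 6 libraries, and 15 macrophage and monocyte markers summed to 22582 to 30965 TPM under the knockout label and 36775 to 52393 TPM under wild type, or 9350 to 11865 and 9282 to 12034 TPM without Lyz2. The 9 dendritic cell genes together came to 34.5 to 51.2 TPM. Tcf4 alone held 21.7 to 34.0 TPM of it, and the 7 conventional genes summed to 10.1 to 14.2 TPM. The first principal component of all tested genes held 44.3% of the variance and set knockout 1, knockout 2 and wild type 3 (-23.1, -17.4 and -30.1) apart from knockout 3, wild type 1 and wild type 2 (31.8, 19.8 and 19.1), a division that crosses the labels.

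The members covered a wide range of levels, and 5 of the 9 stayed under 1 TPM in every library. The order by mean TPM was Tcf4 (28.5 TPM), Cd209a (6.25 TPM), Batf3 (4.22 TPM), Siglech (3.402 TPM), Clec9a (0.830 TPM), Fscn1 (0.308 TPM), Zbtb46 (0.276 TPM), Ccl17 (0.0871 TPM) and Xcr1 (0.0864 TPM); the mean log2 ratio of Ccl17 to Xcr1 was -0.05. Of the 8 neighbouring pairs, 5 had the first gene higher in 6 of 6 libraries, namely Tcf4 over Cd209a, Cd209a over Batf3, Siglech over Clec9a, Clec9a over Fscn1 and Zbtb46 over Ccl17. Each of these pairs gave p = 0.03125 in an exact permutation test (sign flips of the log2 ratio, two-sided, n = 6), the smallest p that 6 libraries allow. The adjusted p of this test over the 8 pairs was 0.05, which is not under 0.05. Pairs and directions were taken from the mean TPM of these same 6 libraries. The p-values therefore describe the steps and are no independent test of the order. The widest of the 8 steps was Tcf4 over Cd209a, with a mean log2 ratio of 2.18 ± 0.29 (SD, n = 6). Batf3 and Siglech, Fscn1 and Zbtb46, and Ccl17 and Xcr1 had overlapping ranges and differed by less than their spread (exact permutation test, adjusted p = 0.25, 0.46 and 0.78). Cd209a and Batf3 had overlapping ranges although Cd209a was higher in each library. The order also rests on the gene lengths that the authors used, which the sources used here do not give.

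**Figure D1:**
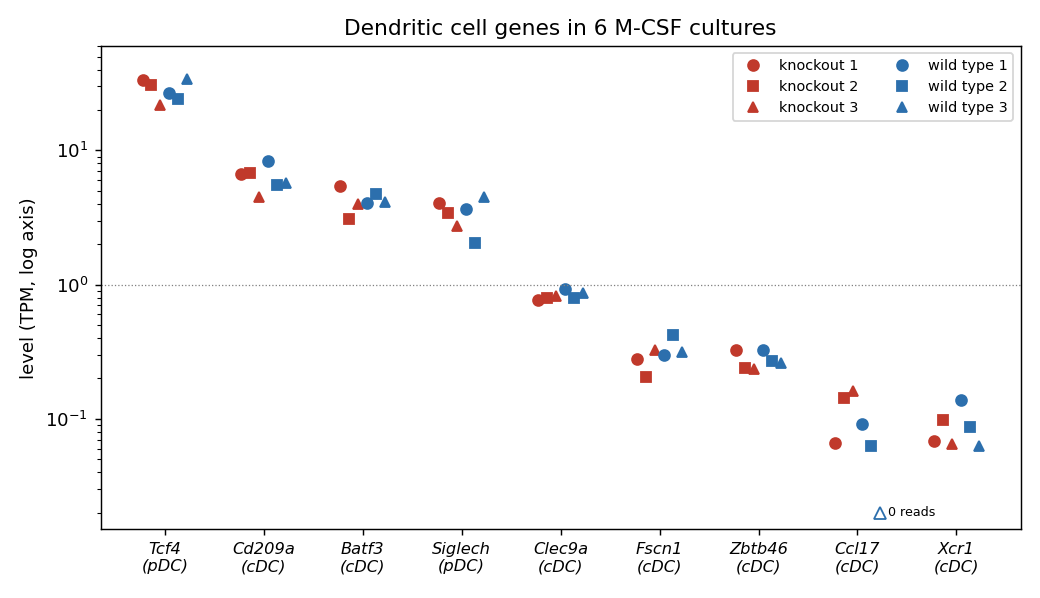
Level of each member in TPM on a log axis, 1 point per library, red for libraries labelled knockout and blue for wild type, with the replicate number as symbol; pDC and cDC mark plasmacytoid and conventional genes, and the open symbol marks a library with 0 reads. Tcf4 sat between 21.7 and 34.0 TPM, while Clec9a, Fscn1, Zbtb46, Ccl17 and Xcr1 lay under 1 TPM (dotted line) in each of the 6 libraries, and red and blue points overlapped for each of the 9 genes.

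Of the plasmacytoid pair, Tcf4 was the more abundant in every library; it is a transcription factor that B cells and stromal cells also use. The gene spans chr18:69344492-69687967 on the plus strand (mm10, the build of every gene position given here). It had 33.5, 30.5 and 21.7 TPM in knockout 1, 2 and 3 and 26.9, 24.3 and 34.0 TPM in wild type 1, 2 and 3. The high libraries were wild type 3, knockout 1 and knockout 2, and the groups overlapped. The log2 difference between the labels, from limma on log2(TPM + 0.1), was -0.0016 ± 0.20 (SE), with a 95% interval of -0.48 to 0.47. The spread between libraries was larger than counting error: 4047 to 7626 reads per library gave a 95% Poisson interval of 21.0 to 22.4 TPM in the lowest library and 33.2 to 34.8 TPM in the highest. Such intervals cover counting error only.

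Siglech (chr7:55768178-55778833, plus strand) encodes a receptor on plasmacytoid cells and their precursors. Its level was 4.07, 3.44 and 2.73 TPM in knockout 1, 2 and 3, and 3.64, 2.05 and 4.47 TPM in wild type 1, 2 and 3. The values of wild type enclosed all those of the libraries labelled knockout. The log2 difference was 0.06 ± 0.31 (SE), with a 95% interval of -0.67 to 0.79. Wild type 2 and wild type 3 share a label and were the lowest and the highest library, with 153 and 307 reads and Poisson intervals of 1.74 to 2.40 and 3.99 to 5.003 TPM that do not overlap.

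Tcf4 divided the libraries as did the first component, which was computed from all tested genes, Tcf4 among them. The division is thus no independent test of Tcf4. Its 3 highest libraries were those with a score below 0, without overlap with the others. It was the only 1 of the 9 members divided so; 47.3% of 13722 tested genes were divided in either direction and 22.7% in the direction of Tcf4. Siglech missed it by 1 library, with wild type 1 at 3.64 TPM above knockout 2 at 3.44 TPM. Of the 17 genes in the plasmacytoid list, 4 were higher on that side without overlap (Tcf4, Tlr7, Tlr9 and Pltp), near the 22.7% of all tested genes, and 2 were lower (Lair1 and Cox6a2); all but Tcf4 and Tlr7 are named after their values were seen. The nucleic acid receptor gene Tlr7 had 257, 247 and 268 TPM in knockout 1, knockout 2 and wild type 3, and 187, 187 and 172 TPM in knockout 3, wild type 1 and wild type 2. Tlr9, a related receptor gene, had 23.2, 20.0 and 22.5 TPM against 14.4, 16.8 and 10.2 TPM in the same libraries. Lair1, the gene of an inhibitory collagen receptor, ran the other way, with 57.6, 63.4 and 49.0 TPM against 84.6, 63.5 and 70.4 TPM. Csf1r lay higher in the same 3 libraries, at 1448, 1355 and 1525 TPM against 815, 1047 and 1042 TPM, and its part in the division was not tested. Of the 15 macrophage and monocyte markers, 8 were higher on the side below 0 without overlap, Csf1r among them, and 0 were lower. That count is to be read beside the 22.7% of all tested genes. The division was thus not particular to plasmacytoid genes. In bulk RNA, fewer cells of a type and less RNA per cell cannot be told apart.

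The genes with the profile nearest to that of Tcf4 over the 6 libraries, by the root mean square difference of centred log2 values among 10256 genes of at least 1 TPM, were Mif4gd (0.016), Man1c1 (0.023) and Tpra1 (0.033). For Cd209a, the most abundant conventional member, they were Rragb (0.073), Cand2 (0.080) and Ndufb4 (0.094). None of these 6 genes is in the lists of dendritic cell genes used here. Within the libraries below 0 and above 0 on the first component, the log2 difference between the labels was -0.09 and -0.24 for Tcf4, -0.25 and -0.0031 for Siglech, and 0.23 and -0.59 for Cd209a; each of these rests on 2 libraries of a label against 1 of the other.

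**Figure D2:**
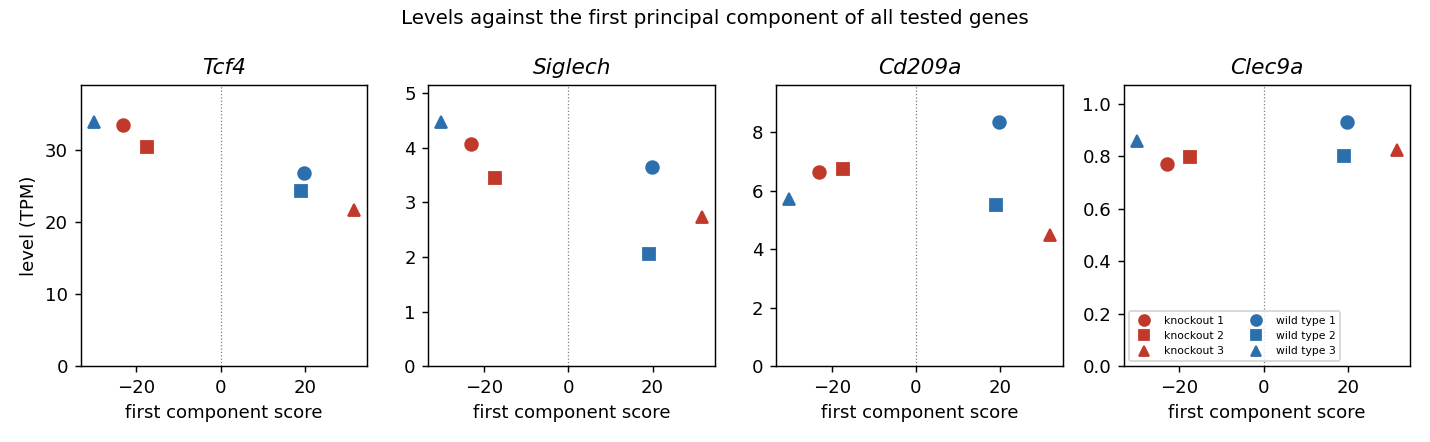
Level in TPM (vertical axes start at 0) of Tcf4, Siglech, Cd209a and Clec9a against the score of each of the 6 libraries on the first principal component, coloured by label. Tcf4 was 30.5 TPM or more in the 3 libraries below 0 and 26.9 TPM or less in the 3 above 0, while Clec9a stayed between 0.769 and 0.932 TPM along the axis.

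Among the transcription factors of conventional cells, Batf3 was measured at a moderate level and Zbtb46 at a low one. Batf3, which type 1 cells need for their development, spans chr1:191098414-191108943 (plus strand) and had 5.41, 3.07 and 3.99 TPM in knockout 1, 2 and 3 and 4.05, 4.70 and 4.12 TPM in wild type 1, 2 and 3. Its extremes were both in libraries labelled knockout, with 114 reads in knockout 1 and 60 in knockout 2, and their Poisson intervals of 4.46 to 6.497 and 2.35 to 3.96 TPM do not overlap. The log2 difference was -0.08 ± 0.22 (SE; 95% interval -0.60 to 0.44). Its relatives Batf and Batf2, basic leucine zipper factors that other immune cells use, had means of 24.1 and 7.99 TPM, above the 4.22 TPM of Batf3.

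Zbtb46, a zinc finger factor of conventional cells that endothelium also expresses, spans chr2:181390886-181459426 (minus strand). It had 32, 22 and 19 reads (0.324, 0.241 and 0.235 TPM) in knockout 1, 2 and 3 and 23, 28 and 25 reads (0.326, 0.270 and 0.262 TPM) in wild type 1, 2 and 3. The groups overlapped, and the Poisson intervals of the lowest and highest library, 0.141 to 0.367 and 0.207 to 0.489 TPM, did too. Any difference between the 6 libraries was not detectable at this depth. The log2 difference was -0.08 ± 0.20 (SE; 95% interval -0.57 to 0.41). Of 12 stromal and endothelial markers 8 had a mean under 1 TPM, and their sum was 9.16 to 12.3 TPM under the knockout label against 11.4 to 13.2 TPM. Their part in the level of Zbtb46 was not tested.

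Among the members, the surface receptors of conventional cells ranged from Cd209a, at several TPM, to Xcr1, at the edge of detection. Cd209a, a C-type lectin of type 2 and monocyte-derived dendritic cells, spans chr8:3743395-3748984 (minus strand). It had 6.65, 6.76 and 4.50 TPM in knockout 1, 2 and 3 and 8.37, 5.52 and 5.72 TPM in wild type 1, 2 and 3. The lowest library was knockout 3 and the highest wild type 1, both with a positive score on the first component, and the groups overlapped. Its log2 difference was -0.13 ± 0.23 (SE; 95% interval -0.68 to 0.43). Other genes of the family had few reads over the 6 libraries: 99 for Cd209c, 38 for Cd209d, 27 for Cd209e, 4 for Cd209f, 2 for Cd209b and 1 for Cd209g, against 1490 for Cd209a. No window of 50 bases in the Cd209a transcripts of GENCODE occurs in a transcript of another gene.

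Clec9a, the receptor with which type 1 cells bind the exposed actin of dead cells, was the most even of the 7 tested members, with its highest library 1.21 times its lowest. It spans chr6:129408862-129424764 (plus strand) and had 75, 72 and 66 reads (0.769, 0.797 and 0.825 TPM) in knockout 1, 2 and 3 and 65, 82 and 81 reads (0.932, 0.800 and 0.859 TPM) in wild type 1, 2 and 3. The groups overlapped, with wild type 1 highest, and the Poisson intervals of the lowest and highest library, 0.605 to 0.964 and 0.719 to 1.19 TPM, overlapped too. The log2 difference was -0.10 ± 0.16 (SE), and its 95% interval of -0.48 to 0.27 was the narrowest of the 7 tested members. The start of Clec9a overlaps a transcript of Clec1b, a platelet receptor gene on the same strand, with which it shares 4.02% of its windows of 50 bases. Clec1b had 269, 199 and 159 reads in knockout 1, 2 and 3 and 205, 304 and 344 reads in wild type 1, 2 and 3, and the part of shared reads in the level of Clec9a was not tested.

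Xcr1, the chemokine receptor of type 1 cells, spans chr9:123852315-123862029 (minus strand) and did not pass the filter of 0.1 TPM in 3 libraries. It had 9, 12 and 7 reads in knockout 1, 2 and 3 and 13, 12 and 8 reads in wild type 1, 2 and 3, or 0.0628 to 0.138 TPM. The groups overlapped, and wild type 1 was the only library of the 6 above 0.1 TPM. In its transcript 1.63% of windows of 50 bases also occur in transcripts of other genes, over 429 genes in all, so part of so few reads can be shared.

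**Figure D3:**
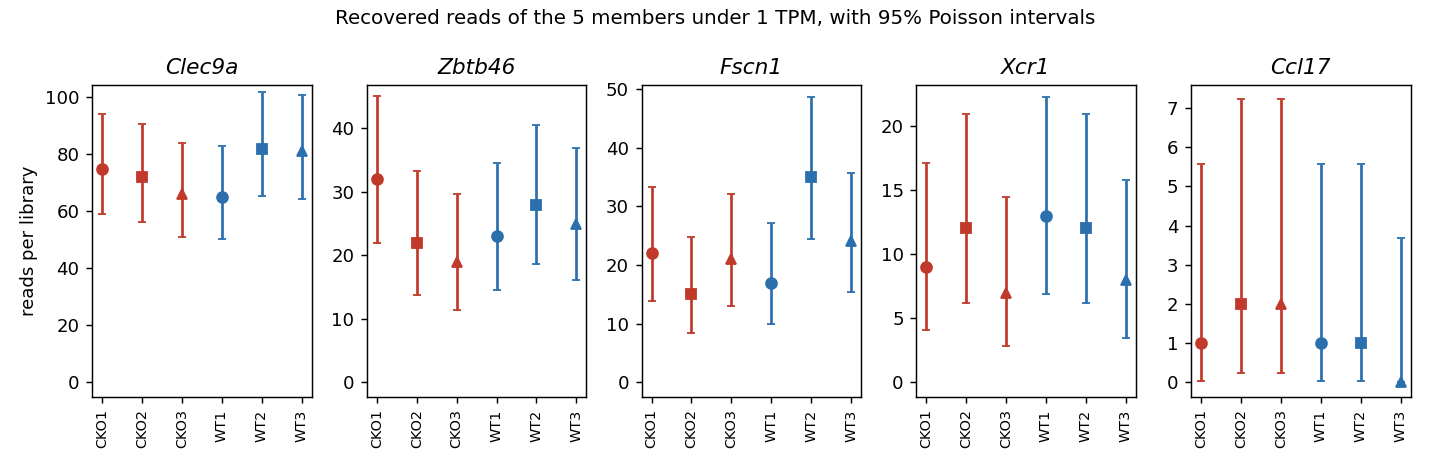
Recovered reads per library of the 5 members under 1 TPM, with 95% Poisson intervals as bars, red for libraries labelled knockout (CKO) and blue for wild type (WT). Clec9a had 65 to 82 reads, Zbtb46 19 to 32, Fscn1 15 to 35, Xcr1 7 to 13 and Ccl17 0 to 2, and for each gene the intervals of its lowest and highest libraries overlapped.

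The members that are products of mature dendritic cells, Ccl17 and Fscn1, were also scarce. Ccl17, a chemokine that attracts T cells through CCR4, spans chr8:94810453-94812036 (plus strand), had 1, 2 and 2 reads in knockout 1, 2 and 3 and 1, 1 and 0 reads in wild type 1, 2 and 3, and did not pass the filter. The count of 0 in wild type 3 has a 95% Poisson interval that reaches 3.69 reads. With 5 reads against 2, no difference could be measured. Fscn1, which bundles actin in the processes of mature dendritic cells, spans chr5:142960355-142973189 (plus strand) and had 22, 15 and 21 reads (0.279, 0.205 and 0.324 TPM) in knockout 1, 2 and 3 and 17, 35 and 24 reads (0.301, 0.422 and 0.314 TPM) in wild type 1, 2 and 3. The groups overlapped, with knockout 2 lowest and wild type 2 highest. Its log2 difference of -0.27 ± 0.22 (SE; 95% interval -0.81 to 0.26) was the farthest from 0 among the tested members.

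Between the labels, 0 of the 7 tested members passed at an adjusted p under 0.05, where 0% of 13722 tested genes did (limma; limma-voom, run on recovered reads, called 0 as well). The members' adjusted p-values were 0.999993 each (limma). At an unadjusted p under 0.05 there were 0 members, beside 2.18% of all tested genes (299; limma-voom gave 310), and the groups did not overlap for 0 of 9 members, beside 5.12% of all tested genes. Of the 7, 6 lay below 0 and 1 above 0 in log2 difference, with a median of -0.08, where 48.9% of all tested genes had a negative one and the median was 0.0026. The intervals leave room for moderate differences: the widest, of Siglech, ran from -0.67 to 0.79, and none reached 1 on the log2(TPM + 0.1) scale in either direction. That scale understates the change of low genes. For Fscn1 the difference was -0.39 ± 0.29 (SE) in limma-voom and -0.36 ± 0.31 (SE) with a pseudocount of 0.01. Larger changes of the members under 1 TPM are thus not excluded. The authors' deposited table calls 0.265% of its genes and 0 of the 9 members, with log2 fold changes from -0.37 (Fscn1) to 1.17 (Ccl17).

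**Figure D4:**
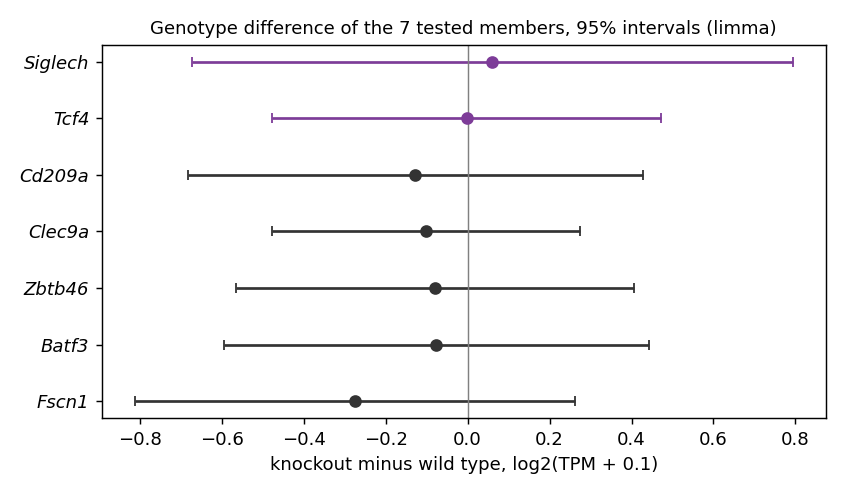
Difference between libraries labelled knockout and wild type for the 7 tested members on the log2(TPM + 0.1) scale, with 95% intervals from limma as bars; plasmacytoid genes are purple and conventional genes black. Every interval of the 7 spans 0, from -0.81 at the low end (Fscn1) to 0.79 at the high end (Siglech).

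Further genes of dendritic cells were read from lists drawn up by name. In the plasmacytoid list the log2 difference was above 0 for 10 of 17 tested genes and below 0 for 7 (median 0.06). Of these 0 passed, and the groups did not overlap for 1 gene (beside 5.12% of all tested genes). That gene was Klk1, a kallikrein with 2 to 8 reads per library, where all values under the knockout label lay below those of wild type. The most abundant gene of the list was Bst2, a surface protein induced by interferon, with 477 ± 83 TPM under the knockout label against 391 ± 26 TPM (SD, n = 3 each). Spib, a transcription factor that plasmacytoid cells share with B cells, had 12.9 ± 2.8 against 17.6 ± 2.7 TPM, and Ly6d, a surface protein shared with B cell precursors, had 17.2 ± 5.9 against 24.8 ± 1.5 TPM. Their log2 differences were -0.46 ± 0.18 and -0.57 ± 0.23 (SE), and neither passed. Of 11 tested B lineage markers 11 also had a negative difference, with a median of -0.46 and 0 passing, and their summed level was 157 to 256 TPM against 232 to 267 TPM. Blnk, an adaptor gene, held 92.7 to 151 TPM of it, and without Blnk the sum was 64.01 to 109 against 99.5 to 128 TPM; the part of B lineage cells in Spib and Ly6d was not tested.

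In the list of type 1 conventional cells the log2 difference was above 0 for 8 of 15 tested genes and below 0 for 7 (median 0.12), and 0 passed. The groups did not overlap for 5 of the 15, a count to read beside the 5.12% of all tested genes. Cd8a, a coreceptor that type 1 cells share with T cells, had 0.563 ± 0.156 against 0.0978 ± 0.0474 TPM (SD, n = 3 each), a log2 difference of 1.75 ± 0.29 (SE; limma, adjusted p = 0.82). Tap1, the peptide transporter of MHC class I loading, had 76.9 ± 10.9 against 55.2 ± 10.0 TPM, and Tlr3, the receptor of double-stranded RNA, had 13.9 ± 1.3 against 11.2 ± 1.3 TPM. Tlr11, named after its values were seen, was the other gene above wild type in each library labelled knockout, and Cd24a, a surface glycoprotein, lay below wild type with 52.6 ± 4.23 against 60.01 ± 2.27 TPM. The defining surface genes of the list, Clec9a and Xcr1, were not among the 5. Of 9 tested T and NK cell markers 9 had a positive difference and 8 did not overlap between the groups, beside 5.12% of all tested genes. Of these, Cd3e, Il2rb and Gzmb passed the filter only through the libraries labelled knockout. For such genes the filter itself fixed the direction and the separation, so these counts, which include them, are no test. The other tested markers of the list also reached 0.1 TPM in wild-type libraries. Klrb1c and Ncr1, also markers of the list, did not pass the filter, and their groups overlapped. Cd3e, a CD3 subunit that T cells need for signalling, had 0.329, 0.432 and 0.287 TPM in knockout 1, 2 and 3 against 0.0658, 0.0672 and 0 TPM in wild type 1, 2 and 3. The summed level of the 11 such markers in the table was 15.7 to 29.4 against 11.4 to 29.9 TPM. Cd4, at 5.15 to 25.3 TPM, was part of it, and without Cd4 the sum was 7.13 to 10.6 against 3.46 to 4.91 TPM; the part of T cells in the Cd8a value was not tested.

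In the list of type 2 conventional cells 8 of 14 tested genes had a positive and 6 a negative difference (median 0.09), with 0 passing. The groups did not overlap for 0 of them, beside 5.12% of all tested genes. The most abundant genes of the list, S100a4 and the signal regulatory receptor gene Sirpa, are also genes of macrophages. They had 3714 ± 196 against 3379 ± 435 TPM and 1175 ± 145 against 1197 ± 97 TPM. The lectin gene Clec10a, named after its values were seen, had 133, 113 and 146 TPM in knockout 1, knockout 2 and wild type 3, and 48.6, 56.4 and 44.8 TPM in knockout 3, wild type 1 and wild type 2. It was divided as Tcf4 was, like 6 of the 14 tested genes of the list and 22.7% of all tested genes, while Cd209a was not. In the list common to conventional cells 6 of 17 genes had a positive and 11 a negative difference (median -0.05). Of these 0 passed, and the groups did not overlap for 1, the nectin gene Pvrl1, beside 5.12% of all tested genes. The most abundant gene of that list, Cd83, is expressed by activated cells of several kinds. It had 41.0, 36.4 and 45.0 TPM in the libraries below 0 on the component (knockout 1, knockout 2 and wild type 3). The others had 9.02, 13.7 and 14.6 TPM, a division that 3 of the 17 genes and 22.7% of all tested genes showed. Flt3 and the integrin gene Itgax (CD11c), named after their values were seen, had 1.10 to 1.86 and 2.75 to 3.78 TPM.

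Among genes of mature and migratory dendritic cells 12 of 19 had a positive and 7 a negative difference (median 0.04), and 0 passed. The groups did not overlap for 1, beside 5.12% of all tested genes. That gene was Il15ra, the receptor that presents interleukin 15, with 7.78 ± 0.29 against 5.90 ± 0.63 TPM (SD, n = 3 each). The homing receptor gene Ccr7 had 1.22 ± 0.30 against 1.57 ± 0.14 TPM. Ccl22, the partner of Ccl17 as a ligand of CCR4 and named after its values were seen, had 18 to 34 reads per library, where Ccl17 had 0 to 2. The most abundant genes of this list, Tmem123 and Marcksl1, had 168 ± 16 against 169 ± 20 and 143 ± 8 against 132 ± 11 TPM, far above the level of Fscn1. Of the 20 genes of the list that were measured, 6 had a mean under 1 TPM, Ccl17 and Fscn1 among them.

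**Figure D5:**
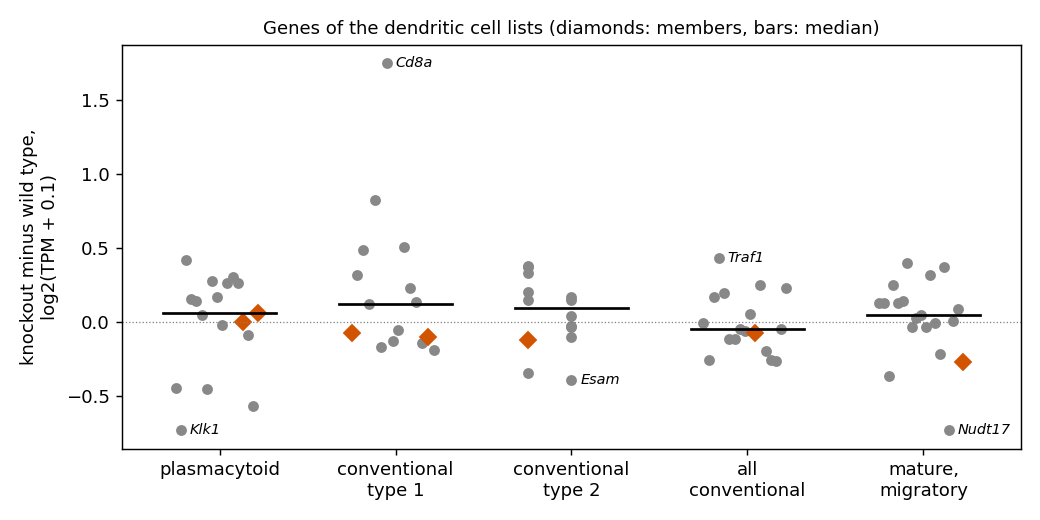
Difference between libraries labelled knockout and wild type, log2(TPM + 0.1), for each tested gene of 5 dendritic cell lists; orange diamonds are members, grey points the other genes, black bars the list medians, and the gene farthest from 0 is named. The medians lay between -0.05 and 0.12, and Cd8a, at 1.75, stood farthest from 0.

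Of 25 genes that control the transcription of dendritic cell development, 12 had a positive and 13 a negative difference (median -0.0016), 0 passed, and the groups did not overlap for 2, a count to read beside the 5.12% of all tested genes. Those were Batf2, with 10.4 ± 3.6 against 5.54 ± 1.22 TPM, and Stat3, which acts downstream of FLT3, with 74.4 ± 0.9 against 67.1 ± 7.0 TPM (SD, n = 3 each). Both were higher in each library labelled knockout, but Stat3 only narrowly, with 73.8 TPM in knockout 2 and 73.6 TPM in wild type 3. The most abundant of the 25 were Spi1, the myeloid master factor PU.1, with 319 ± 26 against 320 ± 20 TPM, and Zeb2, with 159 ± 9 against 158 ± 11 TPM. Irf8, the partner of Batf3 and the most abundant gene of the type 1 list, had 154 ± 12 against 140 ± 15 TPM, above Batf3 in each library. For growth factors and their receptors 10 of 13 had a positive and 3 a negative difference (median 0.14), with 0 passing. Groups without overlap were seen for 0 of them, beside 5.12% of all tested genes. Csf2, the gene of GM-CSF and named after its values were seen, had 0 or 1 read in each library, while its receptor gene Csf2ra had 105 ± 20 against 96.4 ± 11.1 TPM, and Flt3l, the gene of FLT3 ligand, had 12.5 ± 0.6 against 10.8 ± 1.8 TPM.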

How the data were processed

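RNA of 3 libraries labelled knockout (CKO1 to CKO3) and 3 wild-type libraries (WT1 to WT3) was analysed. Per the submitters' processing notes the tools were FastQC 0.11.2, TopHat2 2.0.12, Picard 1.127, Subread, featureCounts and edgeR, with mm10; their roles and options were not given in the sources read. TPM per library is the unit the authors deposited, as read from values that sum to the same total. Per the file headers the same table carries a log2 fold change, a log2 mean CPM, a score from a likelihood ratio test, and raw and adjusted p-values. Table starts count from 0 and are printed counting from 1.

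Whole reads, within 0.01 of a read, were recovered for 100% of 94034 values above 0 from ratios between libraries and the authors' mean log2 CPM. The main test was limma 3.58.1 (R 4.3.3; mean-variance trend, two-sided, Benjamini-Hochberg) on log2(TPM + 0.1), a scale that understates the change of low genes, for 13722 genes that reached 0.1 TPM in 3 or more libraries, adjusted over all of them; 7 of the 9 members passed this filter. The read recovery and the limma fit were tested on simulated data. With 3 libraries a group, the smallest exact permutation p is 0.1. P-values measure only the spread between these samples. Members, lists, tests and alternatives were chosen with earlier results of these data known. Named were all members, the 2 most abundant and up to 4 genes with the smallest p per list (not all are printed), the 3 nearest profiles of Tcf4 and Cd209a, paralogs, and genes said to be named after their values were seen. Alternatives covered pseudocount, filter, scaling, limma-voom, a replicate block, the sign of the first component as a term, and each library left out. Promoters came from RefSeq and transcripts from GENCODE M21, both GRCm38.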

Additional observations from a re-analysis of the deposited data

How the results depend on the processing

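The number of genes called between the labels was 0 under every alternative run, including each library left out. At an unadjusted p under 0.05 there were 168 to 1042 genes (299 as reported; limma), with 1017 without wild type 3 and 1042 with the sign of the first component in the model. The 7 tested members had no call under any alternative in which they were tested; Clec9a, Zbtb46 and Fscn1 do not pass a filter of 1 TPM, and Xcr1 and Ccl17 were tested only without a filter, with no call. When the sign of the first component, itself drawn from these same values, was added to the model, Siglech had a log2 difference of -0.13 in place of 0.06. Tcf4 then had -0.16 ± 0.08 (SE; adjusted p = 0.70, limma) in place of -0.0016 ± 0.20. That of Ccl17, which rests on 7 reads, was 0.58 with a pseudocount of 0.1, 0.094 with 1 and 1.58 with 0.01. Leaving out each library in turn gave log2 differences between the labels of -0.25 to 0.29 for Siglech, -0.13 to 0.18 for Tcf4, -0.23 to 0.061 for Cd209a, -0.28 to 0.12 for Batf3 and -0.26 to 0.018 for Xcr1, changing sign in each; those of Clec9a (-0.15 to -0.05), Fscn1 (-0.38 to -0.14) and Zbtb46 (-0.19 to -0.0061) did not. The mean log2 ratio of Ccl17 to Xcr1 ranged from -0.19 to 0.083, and the order of the other 7 neighbouring pairs kept its direction. With 5 libraries left, the exact test of a pair cannot go below 0.0625. Replicate numbers occur in both groups. Deviations of same-numbered libraries from their group means had correlations across genes of -0.24, -0.15 and -0.53, where knockout 1 with wild type 3 had 0.43. Deviations from a mean of 3 libraries depend on each other, so these values cannot show whether same-numbered libraries were paired. With a replicate block 0 genes were called and 232 had an unadjusted p under 0.05 (limma). Depth limits Xcr1 and Ccl17, with 61 and 7 reads over all libraries.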
